A study of Mus musculus with 16 samples.

Results

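The genes described are Malat1, a long noncoding RNA of the nucleus, and the splicing and RNA helicase genes named by the symbol stems Srsf, Sfrs, Hnrnp, Snrp, Sf3a, Sf3b, Prpf, U2af, Ddx, Dhx, Rbm and Lsm. Of the 125 such genes named by a single-gene probe, 92 were measured, out of 6191 measured genes in all, because a gene was kept only if every mouse had a value for it in both channel orientations. The symbol rule itself uses no ratio, but the members, Malat1 among them, were chosen with earlier results of these data known. The other 33 genes missed that requirement, among them Rbmx2, which had no value on any array, and they include members of the core machinery such as Sf3a1, Snrpb2 and Lsm2, Lsm3 and Lsm4.

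Right kidneys of 4 male Pept2-/- mice, which lack Slc15a2, the gene of the renal peptide transporter PEPT2, were each compared with 1 RNA pool made from the right kidneys of 5 Pept2+/+ males (wild type, WT). All animals were 88 ± 2 days old, were killed in the morning, and came from a Pept2+/- line on a mixed background of C57BL/6 and 129Sv whose F4 mice were mated to give Pept2-/- or Pept2+/+ litters. The labels name no tissue limit of the deletion, and the WT mice were never hybridised one by one, so every comparison with WT leaves out the spread among WT kidneys. Each knockout kidney was hybridised on 4 spotted cDNA arrays of 2 colours, with knockout RNA in channel 2 on arrays 1 and 3 and in channel 1 on arrays 2 and 4.

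Pre-mRNA splicing removes introns in the spliceosome, which is built from small nuclear RNAs bound by Sm and Lsm proteins, the SF3 and PRPF factors that join them, and RNA helicases that drive each rearrangement. SR proteins and hnRNP proteins bind the transcript and decide, often in opposition, which exons are kept. Malat1 is among the most abundant nuclear RNAs of many tissues and sits in nuclear speckles, where SR proteins are stored, although mice without it are viable.

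Slc15a2 checked the labels: its log2 ratio was -2.51 (SE 0.10, adjusted p = 2.2e-05 by limma, 4 mice). In the deposited values it was above 0 on 8 of 8 arrays that carried knockout RNA in channel 2, and below 0 on 8 of 8 that carried it in channel 1. Channel 1 is thus the likely numerator of a deposited value, and every ratio below was turned to knockout over WT on the log2 scale. Under the opposite reading every "higher" and "lower" below is exchanged. Between 10134 and 18400 of 20205 probes had a value on an array. The pair of arrays of different mice that were most alike, array 3 of mouse 3 and array 1 of mouse 4, correlated at r = 0.62 across probes, while the highest r between arrays of 1 mouse was 0.53. Array 3 of mouse 4 had the deposited median farthest from 0 (-0.093, set to 0 here as on every array). Ratios give no level, so the kidney identity of the samples could not be checked by the level of marker genes.

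The promoters of Malat1, the member farthest from the WT pool, and of Srsf3 and Hnrnpa2b1, whose ratios were low in the same mice, are shown because the measurements below centre on these genes. Each window runs from 250 bases before to 50 after the RefSeq start on GRCm38.p6, read 5′ to 3′ on the gene's strand, and capitals mark TGACGT or its reverse complement ACGTCA, letters found in cyclic AMP response elements. Malat1 lies on the minus strand (chr19:5802623-5802922), Srsf3 on the plus strand (chr17:29032410-29032709) and Hnrnpa2b1 on the minus strand (chr6:51469845-51470144).
Malat1: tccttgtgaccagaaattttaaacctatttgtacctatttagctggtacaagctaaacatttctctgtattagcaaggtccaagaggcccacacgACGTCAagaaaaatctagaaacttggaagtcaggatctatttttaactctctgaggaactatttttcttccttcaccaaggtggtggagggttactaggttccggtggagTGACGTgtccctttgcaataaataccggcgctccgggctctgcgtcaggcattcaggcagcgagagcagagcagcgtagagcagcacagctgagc
Srsf3: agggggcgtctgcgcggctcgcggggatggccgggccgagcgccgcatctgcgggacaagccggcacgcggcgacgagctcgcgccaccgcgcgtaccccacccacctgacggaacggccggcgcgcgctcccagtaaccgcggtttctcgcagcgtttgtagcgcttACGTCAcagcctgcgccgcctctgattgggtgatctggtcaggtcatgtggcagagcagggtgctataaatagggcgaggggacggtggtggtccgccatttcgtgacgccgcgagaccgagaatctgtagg
Hnrnpa2b1: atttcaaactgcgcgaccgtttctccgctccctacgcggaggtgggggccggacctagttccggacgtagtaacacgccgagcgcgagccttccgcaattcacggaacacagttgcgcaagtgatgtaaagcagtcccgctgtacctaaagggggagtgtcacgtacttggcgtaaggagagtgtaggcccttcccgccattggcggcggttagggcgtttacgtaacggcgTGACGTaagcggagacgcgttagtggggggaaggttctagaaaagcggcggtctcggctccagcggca

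Windows were found for 81 of the 92 members in the RefSeq promoter table, and the first listed window was used where a gene had several. TGACGT or ACGTCA occurred in 23 of them (28.4%), in 12.5% of 5056 windows of measured genes and in 7.64% of all 27025 windows. CCAAT or ATTGG, the CCAAT box, occurred in 53.1% of member windows, 38.1% of those of measured genes and 37.9% of all. GGGCGG or CCGCCC, a GC box, occurred in 51.9%, 64.3% and 35.9% in the same order, and TATAAA or TTTATA in 9.88%, 7.3% and 14.2%. Matches were sought on both strands, and where both forms of a motif overlap as a palindrome both were counted. Among the genes that turn up below, Ddx28 held 2 matches to TGACGT and Hnrnpu and Ddx5 held none, while Hnrnpu held 4 GC boxes. These are letters in a window and were not tested for use by any factor.

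Malat1 RNA was lower in knockout kidney than in the WT pool in all 4 mice, and the mouse means were close to each other. Its log2 ratio was -0.60, -0.58, -0.59 and -0.49 in mice 1 to 4, and the mean of -0.56 (SE 0.045, 95% interval -0.67 to -0.46, adjusted p = 0.00313 by limma) is 1.48-fold lower. Malat1 was the only one of the 92 members past an adjusted p of 0.05 in either direction, where 0.210% of all measured genes (13 of 6191) were called, 9 lower (0.145%) and 4 higher (0.0646%). Only Slc15a2 had a smaller p among all genes. In whole kidney, fewer cells of a type and less RNA per cell cannot be told apart.

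Array by array, Malat1 was below 0 on each of the 15 arrays that had a value. Mouse 1 gave -0.57, -0.32, -0.79 and -0.72 on arrays 1 to 4. Mouse 2 gave -0.21, -0.18, -1.05 and -0.87. Mouse 3 gave -0.65, -0.42 and -0.87 on arrays 1 to 3 and had no value on array 4, and mouse 4 gave -0.10, -0.61, -0.88 and -0.36. The single arrays of 1 mouse were thus spread far more widely (within-mouse SD 0.33) than the means of the 4 mice (SD 0.053). The closeness of the means therefore does not show that the arrays agreed. The SE, interval and p-value above rest on those means and may overstate the precision of the ratio. Of the 70 members with values on 15 or 16 arrays, Malat1 alone was below 0 on all of them and no member was above 0 on all. Over all 3997 genes so measured, 0.901% (36) were below 0 and 0.325% (13) above 0 on every array.

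**Figure D1:**
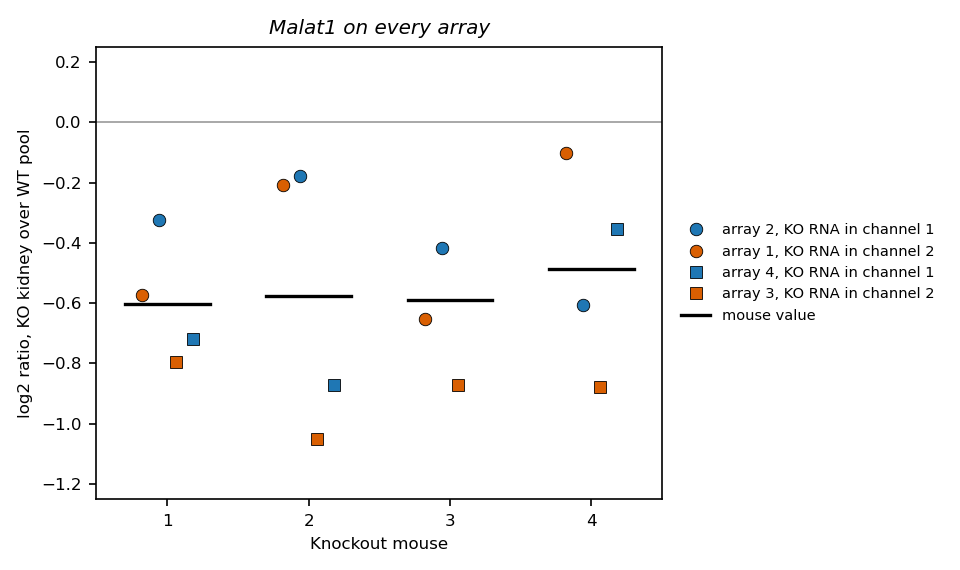
Log2 ratio of Malat1, knockout kidney over WT pool, on each array (points), by knockout mouse, with the value used for the mouse as a black line. Colour gives the channel of the knockout RNA and shape the array pair (circles for arrays 1 and 2, squares for 3 and 4). All 15 points lie below 0, while the mouse values lie between -0.60 and -0.49.

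The size of the Malat1 ratio differed between the array pairs. Arrays 3 and 4 ranged from -1.05 to -0.36 with a median of -0.87 (7 arrays), and arrays 1 and 2 ranged from -0.65 to -0.10 with a median of -0.37 (8 arrays). The ranges overlapped, and the difference was not tested for Malat1 because mouse 3 lacked array 4. The labels do not say how the pairs differ. From arrays 1 and 2 alone the mean was -0.38 and no longer passed (adjusted p = 0.0926 by limma). It was -0.49 with knockout RNA in channel 1 (adjusted p = 0.0341) and -0.64 with it in channel 2 (adjusted p = 0.0691), both by limma. Without mouse 2 it was -0.56 (adjusted p = 0.0383 by limma over the same genes, and 0.0561 over the larger number of genes that the other mice measured). Only 1 probe named Malat1.

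Over the other members the ratios were small and leaned to lower values. Of the 92 members, 59 had a negative and 33 a positive mean ratio, with a median of -0.038. These and the counts that follow include Malat1, without which 58 of 91 were negative (median -0.036). Among all genes, 51.8% were negative with a median of -0.004. At an unadjusted p under 0.05 by limma, 19 members had a lower and 2 a higher ratio, against 10.0% and 6.80% of all genes. Ratios were below 0 in all 4 mice for 24 members and above 0 in all 4 for 7, against 14.3% and 11.4% of all genes. The median was not the same in every mouse: it was -0.010, -0.009, -0.084 and -0.048 in mice 1 to 4, where the median of all genes lay between -0.006 and 0.000. Without mouse 3 the median over the 92 members was -0.023, and -0.014 over the 102 members that the remaining mice measured. From arrays 1 and 2 alone it was -0.014, against -0.058 from arrays 3 and 4.

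**Figure D2:**
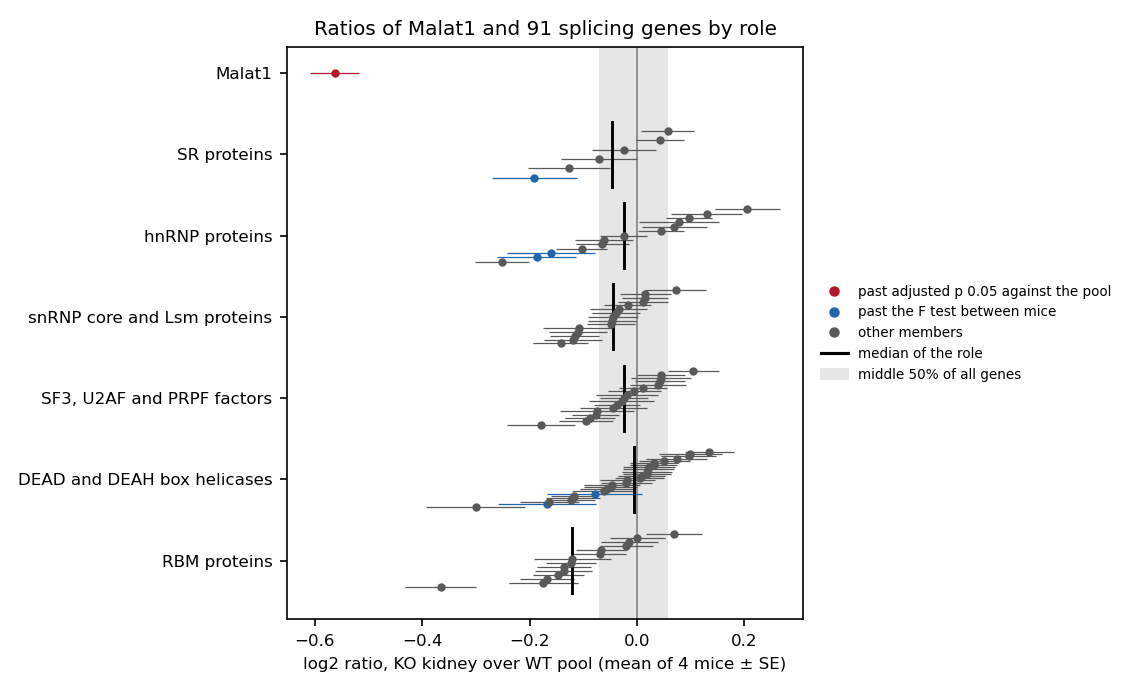
Log2 ratio, knockout kidney over WT pool, of each member (mean of 4 mice, bar is the SE from limma), grouped by role. Black ticks are role medians and the grey band holds the middle 50% of all genes. Malat1 at -0.56 stands alone and the RBM median of -0.12 lies left of the band.

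SR proteins, which bind exonic enhancers and recruit the spliceosome, had a median ratio of -0.047 over 6 genes, 4 of them negative. Srsf3, the smallest SR protein and one that also serves mRNA export, had ratios of 0.00, -0.01, -0.47 and -0.28 in mice 1 to 4. Its mean of -0.19 (SE 0.079) did not pass against WT (adjusted p = 0.275 by limma), yet the mice differed, as described below. Srsf10, which can act as a splicing repressor, had -0.03, 0.06, -0.43 and -0.10 in mice 1 to 4, with only mouse 3 far from 0. Srsf6 averaged 0.06 (SE 0.050) and Srsf9 0.04 (SE 0.044), both with 95% intervals that include 0, and the remaining members Srsf5 and Srsf11 averaged -0.07 and -0.02.

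Proteins of the hnRNP family, which coat nascent transcripts and often repress exons, had mean ratios of both signs, 7 of 13 negative, with a median of -0.025. Hnrnpm had the smallest p of the family: -0.26, -0.15, -0.37 and -0.23 in mice 1 to 4, a mean of -0.25 (SE 0.050, adjusted p = 0.115 by limma). Hnrnpk, a poly(C)-binding protein, was the member with the highest mean ratio, at 0.24, 0.00, 0.34 and 0.23 in the same mice, a mean of 0.21 (SE 0.060, adjusted p = 0.177 by limma). All 4 mice shared the sign in each case, but neither gene passed after adjustment. Hnrnpdl averaged 0.10 (SE 0.043) with the mice between 0.09 and 0.11, but its single arrays ran from -0.11 to 0.37. Its close mouse values thus do not show that its arrays agreed. Hnrnpa0 averaged 0.05 (SE 0.043). Spotted cDNA may not tell close paralogs of the Hnrnpa group apart, so their identity is uncertain.

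The genes named Snrp or Lsm, only some of whose proteins form the rings around the spliceosomal RNAs, were 11 of 15 negative. Their median was -0.045, with a narrow range of -0.14 to 0.07. The Sm proteins Snrpd3 and Snrpe averaged -0.14 (SE 0.051) and -0.12 (SE 0.046), and Lsm8, of the U6 ring, averaged -0.12 (SE 0.054). All 3 were negative in every mouse and lowest in mouse 3, and none passed (adjusted p between 0.229 and 0.311 by limma). No gene of this class differed between mice at an unadjusted p under 0.05 by the F test described below.

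Among the SF3, U2AF and PRPF factors, which recognise the branch site and 3′ splice site and assemble the tri-snRNP, 11 of 17 were negative and the median was -0.024. Sf3b6, the subunit that contacts the branch point adenosine, had -0.06, -0.04, -0.35 and -0.27 in mice 1 to 4, a mean of -0.18 (SE 0.063, adjusted p = 0.219 by limma). Without mouse 3 its mean ratio was -0.12, and it was 0.005 when a probe that mouse 3 had kept out was added. Prpf40b, a U1-associated factor, averaged 0.11 (SE 0.048), and Prpf6, a bridge of the tri-snRNP, averaged -0.09 (SE 0.051). The catalytic core protein Prpf8 averaged 0.04, and the branch site subunits Sf3b2 and Sf3b3 averaged -0.08 and 0.05. All 3 had opposite signs in the 2 channels, and no direction is drawn from them.

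DEAD and DEAH box helicases, which unwind RNA or strip proteins from it in splicing, export, ribosome assembly and decay, were evenly split, 13 negative and 13 positive, with a median of -0.006. Ddx6, which represses translation and promotes decapping in the cytoplasm, was below 0 in all mice (-0.05, -0.09, -0.29 and -0.23) with a mean of -0.16 (SE 0.055, adjusted p = 0.199 by limma). Dhx8, which releases the spliced mRNA from the spliceosome, was above 0 in all mice (0.21, 0.08, 0.09 and 0.16) with a mean of 0.14 (SE 0.046, adjusted p = 0.208 by limma). Ddx39b, a helicase of spliceosome assembly and mRNA export, averaged 0.10 (SE 0.051). Ddx20, a partner of the SMN complex, had the third lowest mean ratio of all members, -0.30 (SE 0.092), but it rested on 10 arrays that ranged from -2.05 to 0.49. Its ratio was -0.76 with knockout RNA in channel 1 and 0.16 with it in channel 2, so its sign changed with the channel.

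RBM proteins, a loose class of RNA-binding proteins with RNA recognition motifs, had the lowest median of any role, -0.12 over 14 genes, 12 of them negative and 7 lower at an unadjusted p under 0.05, against 51.8% and 10.0% of all genes. Rbmxl2, a retrogene relative of Rbmx known from the male germ line, had -0.39, -0.26, -0.60 and -0.22 in mice 1 to 4, a mean of -0.37 (SE 0.066, adjusted p = 0.102 by limma). It was below 0 on 14 of 16 arrays, and among the 2681 genes whose probes had values on all 16 arrays it passed (adjusted p = 0.0442 by limma). Rbmx itself averaged 0.00 and Rbmxl1 -0.14. A spotted cDNA may capture RNA of more than 1 of these relatives, so the gene behind the Rbmxl2 value is uncertain.

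The other members of the class were closer to 0. Rbm39, a splicing factor related to U2AF, had -0.13, -0.09, -0.30 and -0.15 in mice 1 to 4, a mean of -0.17 (SE 0.050, adjusted p = 0.179 by limma), and Rbm12b1 averaged -0.15 (SE 0.048). Rbm4, a regulator of alternative exons, averaged -0.17, Rbm47 -0.14 and Rbm8a, the Y14 subunit of the exon junction complex, -0.12, each negative in every mouse. Rbm42 had the highest mean ratio of the class at 0.07, but its sign changed with the channel. Rbm3, the cold-inducible relative of Cirbp, was represented only by a probe shared with a pseudogene and is not among the members.

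The knockout mice themselves differed in several members, and this comparison does not involve the WT pool, which is common to all arrays. A moderated F test over the 4 mice at array level, with a dye term, called 5 of the 92 members at an adjusted p under 0.05, where 2.60% of all genes (161 of 6191) were called. At an unadjusted p under 0.05 it called 15 members, against 13.7% of all genes. Arrays are technical replicates, so the test compares these 4 animals and not genotypes, and it takes as independent the arrays of mouse 3 and mouse 4 that were most alike. Values below run over arrays 1 to 4 of a mouse.

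Hnrnpa2b1, which binds RNA in splicing and transport, gave 0.08, 0.01, 0.10 and -0.04 in mouse 1 and 0.13, 0.08, 0.02 and -0.03 in mouse 2. It gave -0.23, -0.30, -0.62 and -0.25 in mouse 3 and -0.49, -0.34, -0.35 and -0.32 in mouse 4 (adjusted p = 0.0126 by the F test). No array of mouse 3 or mouse 4 overlapped with those of mouse 1 or mouse 2.

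Srsf3 gave -0.05, 0.21, -0.10 and -0.08 in mouse 1 and -0.05, 0.09, -0.12 and 0.03 in mouse 2. It gave -0.45, -0.44, -0.58 and -0.38 in mouse 3 and -0.44, -0.20, -0.36 and -0.11 in mouse 4 (adjusted p = 0.00911 by the F test). Every array of mouse 3 was below every array of mice 1 and 2, while those of mouse 4 overlapped with them slightly. Its 2 probes had mean ratios of -0.21 and -0.17.

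Hnrnpu, a nuclear scaffold protein that binds chromatin-associated RNA, had mouse values of -0.04, 0.01, -0.40 and -0.32 (adjusted p = 0.0441 by the F test). Ddx5, the p68 helicase and a co-regulator of transcription, had 0.12, 0.00, -0.37 and -0.42 (adjusted p = 0.0448 by the F test). Both were low in mice 3 and 4, as Hnrnpa2b1 was, and both passed by a narrow margin. Without the 2 most alike arrays their adjusted p was 0.138 for Hnrnpu and 0.153 for Ddx5. Other probes on the array had like profiles, at r above 0.9 over at least 12 arrays. There were 22 such probes for Ddx5, 18 for Hnrnpa2b1, 9 and 0 for the probes of Hnrnpu and 3 and 5 for Srsf3. They may include probes of other members.

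Ddx28 ran the other way. This helicase of the mitochondrial ribosome, which is no splicing factor, had -0.32, -0.28, 0.23 and 0.05 in mice 1 to 4 (adjusted p = 0.00997 by the F test). It had values on 13 arrays, and those of mice 3 and 4 (-0.10 to 0.38) did not overlap with those of mice 1 and 2 (-0.40 to -0.19).

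**Figure D3:**
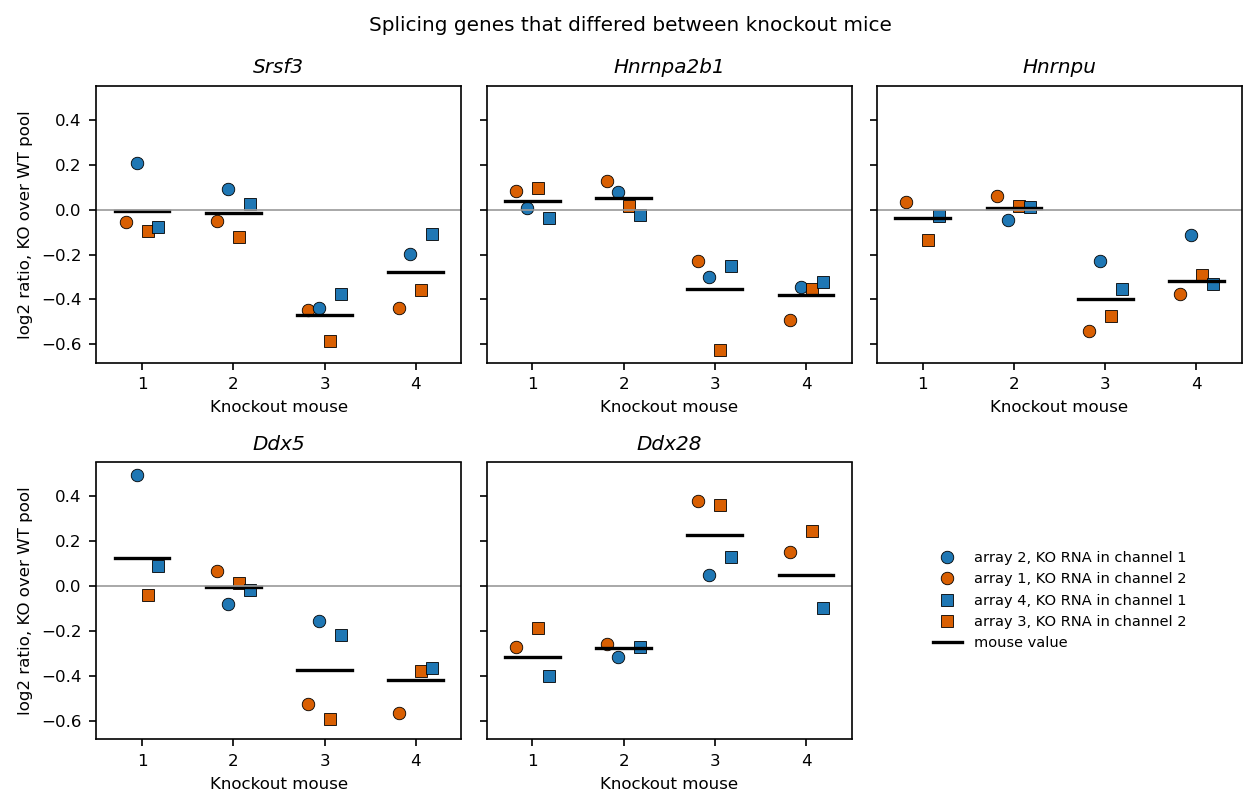
Log2 ratio, knockout over WT pool, on each array of each knockout mouse for the 5 members past the F test between mice, with mouse values as black lines. Srsf3, Hnrnpa2b1, Hnrnpu and Ddx5 lie low in mice 3 and 4, and Ddx28 lies low in mice 1 and 2.

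Further members had a like pattern without passing. Rbm5, a splicing regulator and candidate tumour suppressor, had 0.08, 0.01, -0.27 and -0.31 (adjusted p = 0.0856 by the F test), and Sf3b6, Rbm4 and Srsf5 had their lowest value in mouse 3. Others ran the other way without passing: Hnrnpl had -0.07, -0.11, 0.20 and 0.30 (adjusted p = 0.343 by the F test). Snrpa had -0.08, 0.02, 0.18 and 0.17 (adjusted p = 0.422 by the F test), and Hnrnpk had its highest value in mouse 3. Over all 92 members, mouse 3 was the lowest of the 4 for 37 and mouse 4 for 24, against 19 for mouse 1 and 12 for mouse 2. Among all genes mouse 3 was the lowest for 27.7% and mouse 4 for 23.1%, so the count for mouse 4 is near that of all genes. By role, the RBM median was -0.03, -0.07, -0.15 and -0.15 in mice 1 to 4, and the SR median was -0.03, 0.04, -0.10 and -0.03. The median of the SF3, U2AF and PRPF factors was 0.02, -0.03, -0.08 and 0.00, so mouse 4 was not low in every role.

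**Figure D4:**
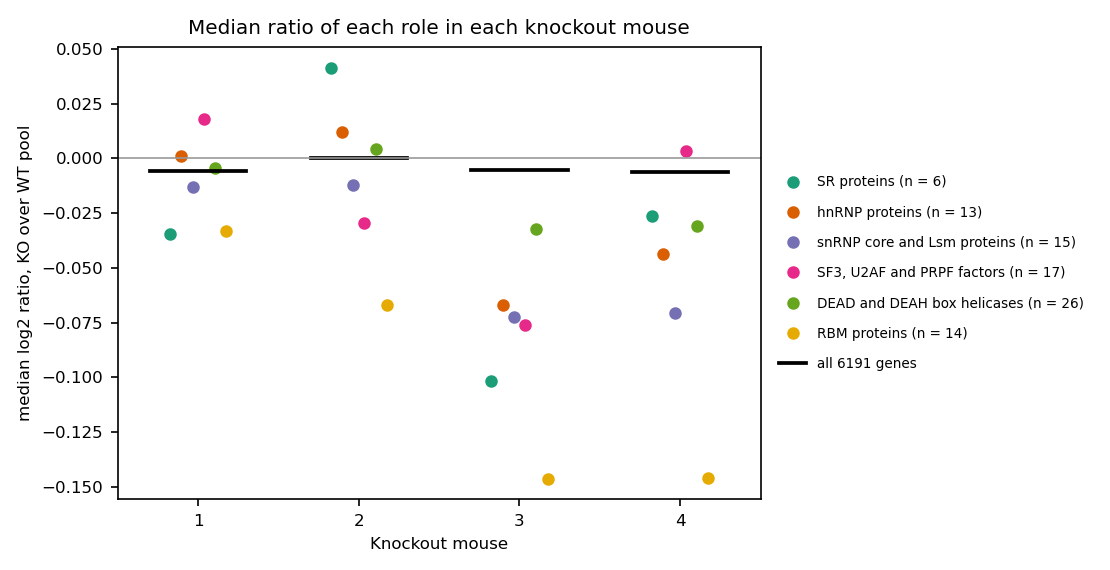
Median log2 ratio, knockout over WT pool, of each role (points, with the number of genes) and of all 6191 genes (black lines) in each knockout mouse. In mouse 3 all role medians lie below that of all genes, and in mouse 4 all but that of the SF3, U2AF and PRPF factors.

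The call between mice changed with the mice and arrays that were kept. With 1 mouse left out, the F test called between 0 (without mouse 1) and 2 (without mouse 4) members, and it called 1 without mouse 2 and 1 without mouse 3. Without the 2 most alike arrays it called 3 (Srsf3, Hnrnpa2b1 and Ddx28), and without array 3 of mouse 4 it called the same 3. With 1 probe a gene the adjusted p of the F test was 0.393 for Hnrnpu and 0.0556 for Srsf3. Calls over all genes, 161 with every mouse and array, also fell with each mouse left out and without the 2 most alike arrays. The fall was thus not confined to the members, and the counts are given in the last section.

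Marker genes of other tissues and cell types differed between these mice as well. The seminal vesicle secretory gene Svs5, the 1 measured of 10 listed markers of that gland, had 0.21, -0.09, 4.94 and 1.09 in mice 1 to 4 (adjusted p = 6.4e-06 by the F test). The median of 9 of 15 leukocyte markers was -0.03, 0.03, 0.10 and 0.00 in mice 1 to 4, and that of 9 of 15 proximal tubule markers was 0.11, 0.02, 0.09 and 0.04. Of these 9 proximal tubule markers, 1 was higher than the WT pool at an adjusted p under 0.05 by limma, against 0.0646% of all genes. At an unadjusted p under 0.05, 3 were higher and 0 lower, against 6.80% and 10.0% of all genes. The median of 6 of 12 collecting duct markers was 0.11, 0.04, 0.19 and 0.13, but these markers did not move together. Mouse 4 was the lowest of the 4 mice for 2 of the 6, and mouse 3 was the highest for 2. The medians of 5 of 10 endothelial markers (-0.04, -0.13, -0.15 and -0.06) and of 8 of 11 smooth muscle and fibroblast markers (-0.17, 0.06, -0.14 and -0.10) did not set mice 3 and 4 apart. Adipose (3 of 8), adrenal (2 of 8), erythroid (1 of 8), loop and distal tubule (2 of 9) and podocyte (1 of 7) markers had mean ratios with medians of -0.06, 0.02, 0.07, -0.10 and -0.19. The loop and distal tubule median was -0.14, -0.21, -0.10 and 0.05 in mice 1 to 4. The F test called 1 gene each in the adipose, loop and distal tubule, collecting duct, and smooth muscle and fibroblast lists. It called 0 in the leukocyte, proximal tubule, adrenal, erythroid, podocyte and endothelial lists, against 2.60% of all genes. The ratios give no level, so a summed level or a marker at 0 could not be read. The part of these cell types in the differences between mice was not tested.

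Genes outside the symbol stems were described from lists of related functions. Of 39 other spliceosome and splicing regulators, 26 were negative (median -0.032), and the 3 with the smallest p were Snw1 at -0.19 (SE 0.048), Cwc15 at -0.18 (SE 0.045) and Rnps1 at 0.15 (SE 0.044). Of 12 genes of the exon junction, mRNA export and cap binding, 10 were negative (median -0.097), led by Thoc7 at -0.19, Thoc2 at -0.24 and Upf2 at -0.21. The 7 genes listed with the SMN complex, which loads Sm rings, had a median of 0.013. Gemin5 was at 0.09, Gemin7 at 0.05 and Clns1a, which may not be a subunit of the complex, at -0.04. The 9 genes of 3′ end processing had a median of 0.022, with Cpsf6 at -0.19, Cpsf4 at 0.18 and Cstf1 at 0.08. No gene of these lists or of the 2 lists below passed an adjusted p of 0.05 against WT by limma. Unadjusted, 6, 5, 0 and 1 were lower in these 4 lists in the order given, and 2, 0, 0 and 0 were higher, against 10.0% and 6.80% of all genes.

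Among 15 paraspeckle, FET family and related RNA-binding proteins, 11 were negative with a median of -0.061, 2 were lower and 1 higher at an unadjusted p under 0.05, against 10.0% and 6.80% of all genes. Sfpq, a core paraspeckle protein and splicing factor, had -0.12, -0.27, -0.84 and -0.70 in mice 1 to 4, a mean of -0.48 (SE 0.11, adjusted p = 0.145 by limma), and the mice differed (adjusted p = 0.00175 by the F test). Cirbp, the cold-inducible RNA-binding protein, had -0.01, 0.25, 1.18 and 0.60 in the same mice (adjusted p = 0.00376 by the F test). Mice 3 and 4 thus had the lowest values for Sfpq and the highest for Cirbp. Nop58, a nucleolar protein of box C/D particles, had its lowest value in mouse 3 (-0.45).

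Malat1's neighbour on chromosome 19, Neat1, the RNA scaffold of paraspeckles, had -0.15, 0.07, -0.29 and -0.40 in mice 1 to 4. Its mean of -0.19 (SE 0.074) did not pass against WT (adjusted p = 0.249 by limma). The mice differed by a narrow margin (adjusted p = 0.0444 by the F test). For Malat1 that adjusted p was 0.962, but its arrays were widely spread (within-mouse SD 0.33), so this does not show that its mice agreed. The 2 RNAs were not tested against each other. Over the 8 measured nuclear and other long noncoding RNAs of the list, which leaves Malat1 out, 6 were negative and the median was -0.068. Gas5 averaged -0.26 (SE 0.071) and Epb41l4aos 0.25 (SE 0.064). At an unadjusted p under 0.05, 2 were lower and 1 was higher, against the same shares of all genes.

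The sign of several members differed with the channel that held the knockout RNA. The difference between orientations passed for none of the 92 members by limma, and for 0% of all genes, while 20 members and 19.5% of all genes had an unadjusted p under 0.05. Besides Ddx20 (-0.93, SE 0.10, knockout RNA in channel 1 minus channel 2), the widest differences were those of Ddx31 (-0.35), Snrpd1 (-0.33), Srsf11 (-0.33) and Hnrnpul1 (-0.31). For Ddx31 and Hnrnpul1 the ratio was negative with knockout RNA in channel 1 and positive in channel 2, and the same held for Snrpd1 and Srsf11. In all, 41 of the 92 members had opposite signs in the 2 channels, against 46.6% of all genes, among them Ddx28, Ddx39b, Srsf6 and Srsf9. No direction is drawn from the mean ratio of any of these genes singly, but the counts of negative and positive ratios above include them. With the 2681 genes whose probes had values on all 16 arrays, 3.88% of genes passed, and so did Prpf8 (0.29, SE 0.070), Rbmx (0.30, SE 0.073) and Sf3a3 (0.30, SE 0.072) of 52 members.

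The difference of arrays 3 and 4 from arrays 1 and 2 could be tested in 54 members. None passed by limma, and for 1 member the unadjusted p was under 0.05, against 0% and 3.68% of 2826 genes. Of the 15 members with more than 1 probe, 9 had probes that shared a sign, and the probes of a gene differed by a median of 0.082 and by at most 0.27 (Dhx40). The median standard error of a member's ratio was 0.050 over 4 mice.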

How the data were processed

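The authors subtracted background from mean spot intensities and scaled each array to a median ratio of 1, per the labels. The deposited values are log2 ratios, 1 per probe and array. The base was read from the values: of 720 distances between repeated values, 45.6% were log2 of a fraction whose terms do not exceed 20 (tolerance 2e-06), and 0% fitted natural or decimal logarithms. The filter behind blank cells and the dye of each channel are not given in the sources used here.

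Here each array was centred on its median and turned to knockout over WT. Arrays of 1 mouse are technical: the mean of its orientation means gave 1 value per mouse. All p-values but those of the F test therefore rest on the values of 4 mice, with a variance that limma moderates toward that of all genes. Where the mice lie close together, the SE is drawn largely from all genes. Hnrnpdl, for example, had an SD between mice of 0.013 and an SE of 0.043. The F test sets the differences between mice against the spread between arrays. A probe was used if each mouse had a value in both orientations, and a gene is the mean of its 1 or more single-gene probes (named by GEO's platform annotation, which can be old, for 11723 of 20205 probes, 11590 of them matched to the RefSeq table). limma 3.58.1 in R 4.3.3 tested mouse values against 0, two-sided, and array values between mice by an F test with a dye term. Each test used limma's variance moderation. Benjamini-Hochberg adjustment covered all 6191 genes. The fits were tested on simulated data.

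Members and lists were chosen with earlier results of these data known. Named were Malat1, all members past a test, up to 8 smallest p in each direction with 1 sign in all mice (8 lower, 7 higher), the 3 smallest p of each role and list, and the 5 widest dye differences, 30 members in all. Members beyond these were named after their values were seen, to fill out their class. Alternatives changed scaling, weighting, probes, arrays, orientation, mice and the dye term.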

Additional observations from a re-analysis of the deposited data

Results flagged for a closer look

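In Hnrnpa0, an hnRNP A/B family member, mouse 1 lay apart from the other knockout mice: its log2 ratio was 0.021, while the others lay at 0.054, 0.052 and 0.053, and its gap to the nearest was 0.944 of the whole range. The range itself is only 0.033, under the SE of 0.043. Chance puts about 1 in 20 such groups of 4 past this limit, and this was 1 of 30 named members examined.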

How the results depend on the processing

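The number of arrays and mice limits these results. Malat1 was negative under all 12 alternatives that gave it a value. It missed the threshold from arrays 1 and 2 (-0.38), with knockout RNA in channel 2 (-0.64) and, with genes chosen again, without mouse 2, with -0.59 to -0.55 over the mice left out in turn, and could not be fitted from arrays 3 and 4 or from probes with values on all arrays. The count of members past the threshold against WT was 0 from arrays 1 and 2, from arrays 3 and 4 and with knockout RNA in channel 2, and 0 to 1 over the mice left out (1 each time on the same probes, a setting also chosen after seeing the data). With probes on all arrays the 1 member past it was Rbmxl2. Over all genes the calls numbered 4, 8 and 1 under those 3 settings, 40 with probes on all arrays, and 1 to 6 over the mice left out (3 to 10 on the same probes, among them 5 without mouse 4). Between mice, 3 members were called with no dye term, 3 without centring, 3 without the 2 most alike arrays and 3 without array 3 of mouse 4 (the last pair chosen after seeing the data), and 0 to 2 over the mice left out, with 41 to 138 genes (47, 76, 62 and 138 on the same probes). All genes fell to 102 calls without the 2 most alike arrays. The dye comparison called 104 genes and 3 members with probes on all arrays. Of 485 values of single members other than Malat1, 468 kept direction and side, Rbmxl2 gained the call (-0.37), and 16 reversed. With knockout RNA in channel 2 only these were Ddx20 (0.16), Ddx28 (0.019), Ddx39b (-0.029), Snrpd1 (0.057), Srsf11 (0.14) and Srsf6 (-0.078), and in channel 1 Ddx31 (-0.16), Hnrnpul1 (-0.087) and Srsf9 (-0.046). Over the mice left out, the sign changed for Ddx28 (-0.18 to 8.7e-05), Ddx31 (-0.0018 to 0.049), Srsf11 (-0.065 to 0.038) and Sf3b6 (-0.23 to 0.0048), the last only because a second probe entered without mouse 3. The cause was not tested. No paired analysis was possible because there is 1 group of mice and the WT RNA is 1 pool.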
